A study of Mus musculus with 14 samples.

Results

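EGF and Amphiregulin are the 2 ligands of the epidermal growth factor (EGF) receptor among the 111 analytes of a mouse cytokine antibody array. They were chosen by the Entrez Gene identifiers of the mouse genes Egf and Areg. No measured value entered that rule, but earlier results of these data were known when it was set. Both ligands are made as precursors anchored in the cell membrane and are set free by proteases, and both bind the same receptor tyrosine kinase, which drives division and migration of keratinocytes at the edge of a wound. In the mouse, the submandibular gland and the kidney are the known main sites of EGF production, the gland of males being especially rich in it, and platelet granules also carry EGF. Amphiregulin is cut from its precursor mainly by the protease ADAM17 and is made by keratinocytes, by other epithelia and by cells of type 2 immunity.

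The array was run on serum of 8-week-old male C57BL/6JNarl mice with a full-thickness skin wound made by biopsy punch on the back. The wound was kept at atmospheric pressure with a wet dressing (AP) or treated with negative pressure (NP). Serum of AP mice was taken at 0 h and serum of both pressures after 0.5, 2 and 16 h of treatment, so that 7 groups had 2 samples each. The AP 0 h samples, named control in the labels, served as the starting point of both pressures. Blood was taken from the cheek and stood before the serum was spun off, and portions of serum were combined for each membrane. The methods speak of 2 independent experiments, but the sources used here do not say which sample came from which experiment or whether a group's samples hold serum of different animals. The p-values therefore measure only how far these samples spread, and part of that spread may be technical. According to the submitters' design note, AP 0 h was not among the experiments that were repeated, yet 2 samples carry that label.

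Spot intensity is reported on 2 scales. The first is the normalized intensity of the authors, which brings the reference spots within a group, but not between groups, to equal brightness. The second, called the reference scaling here, gives the raw intensity as a percent of the mean of the reference spots on the same membrane. The reference spots of the AP 0 h membranes exceeded the later ones by 3.78 to 9.18 times in brightness, so a change from 0 h is read on both scales. As a check of the labelled serum, 7 constitutive plasma proteins were above the negative control in 98 of 98 readings, by at least 11.3-fold. An adjusted p is that of limma, fitted to all 14 samples, with Benjamini-Hochberg adjustment across the 111 analytes and a threshold of 0.05. The small number of membranes limits the precision of every value.

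EGF was bright at AP 0 h and dim in all 6 later groups. Its normalized intensity at AP 0 h was 18067 and 16394 in replicates 1 and 2, with a mean of 17230 ± 1183 (SD, n = 2). At 0.5 h it was 132 and 121 in AP and 261 and 198 in NP. At 2 h it was 319 and 215 in AP and 30.1 and 45 in NP. At 16 h it was 203 and 231 in AP and 169 and 138 in NP. No sample of a later group came near those at 0 h, and the brightest of them was AP 2 h replicate 1. As a share of the AP 0 h mean, EGF stood at 0.733 ± 0.0440% in AP 0.5 h, 1.55 ± 0.425% in AP 2 h and 1.26 ± 0.114% in AP 16 h (SD, n = 2). In NP it stood at 1.33 ± 0.258% at 0.5 h, 0.218 ± 0.0613% at 2 h and 0.890 ± 0.128% at 16 h.

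On the reference scaling, EGF was 11.1% and 10.1% of the reference spots at AP 0 h. It was 0.410% and 0.376% in AP 0.5 h, 0.941% and 0.635% in AP 2 h, and 0.802% and 0.912% in AP 16 h. Under NP the pairs of values were 0.60% and 0.456% (0.5 h), 0.128% and 0.192% (2 h), and 0.941% and 0.767% (16 h). The 0 h samples therefore also stood far above all others after the brightness of the membranes was taken into account, and the means of the later groups were 12.3 to 66.1 times lower than at 0 h.

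Amphiregulin showed no such gap. Its normalized intensity at AP 0 h was 454 and 125.1, with a mean of 290 ± 233 (SD, n = 2). At 0.5 h it was 597 and 972 in AP and 382 and 636 in NP. At 2 h it was 429 and 768 in AP and 46.4 and 163 in NP, and at 16 h it was 297 and 401 in AP and 116 and 218 in NP. The replicates lay far apart, and replicate 2 was the brighter one in all 6 later groups and the dimmer one at AP 0 h. At AP 0 h the higher replicate was 3.63 times the lower, a gap exceeded by 1 other analyte of 111, and at NP 2 h it was 3.51 times the lower, again with 1 analyte showing a larger gap. As a percent of the reference spots, Amphiregulin was 0.278% and 0.0767% at AP 0 h. It was then 1.86% and 3.02% in AP 0.5 h, 1.27% and 2.27% in AP 2 h and 1.17% and 1.58% in AP 16 h. Under NP it reached 0.879% and 1.46% after 0.5 h, 0.198% and 0.694% after 2 h, and 0.646% and 1.21% after 16 h. On this scale 11 of the 12 later samples were above both 0 h samples, the exception being NP 2 h replicate 1. Most of the array was higher than at 0 h on this scale, with 62.2% to 87.4% of all analytes called higher in the later groups.

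**Figure D1:**
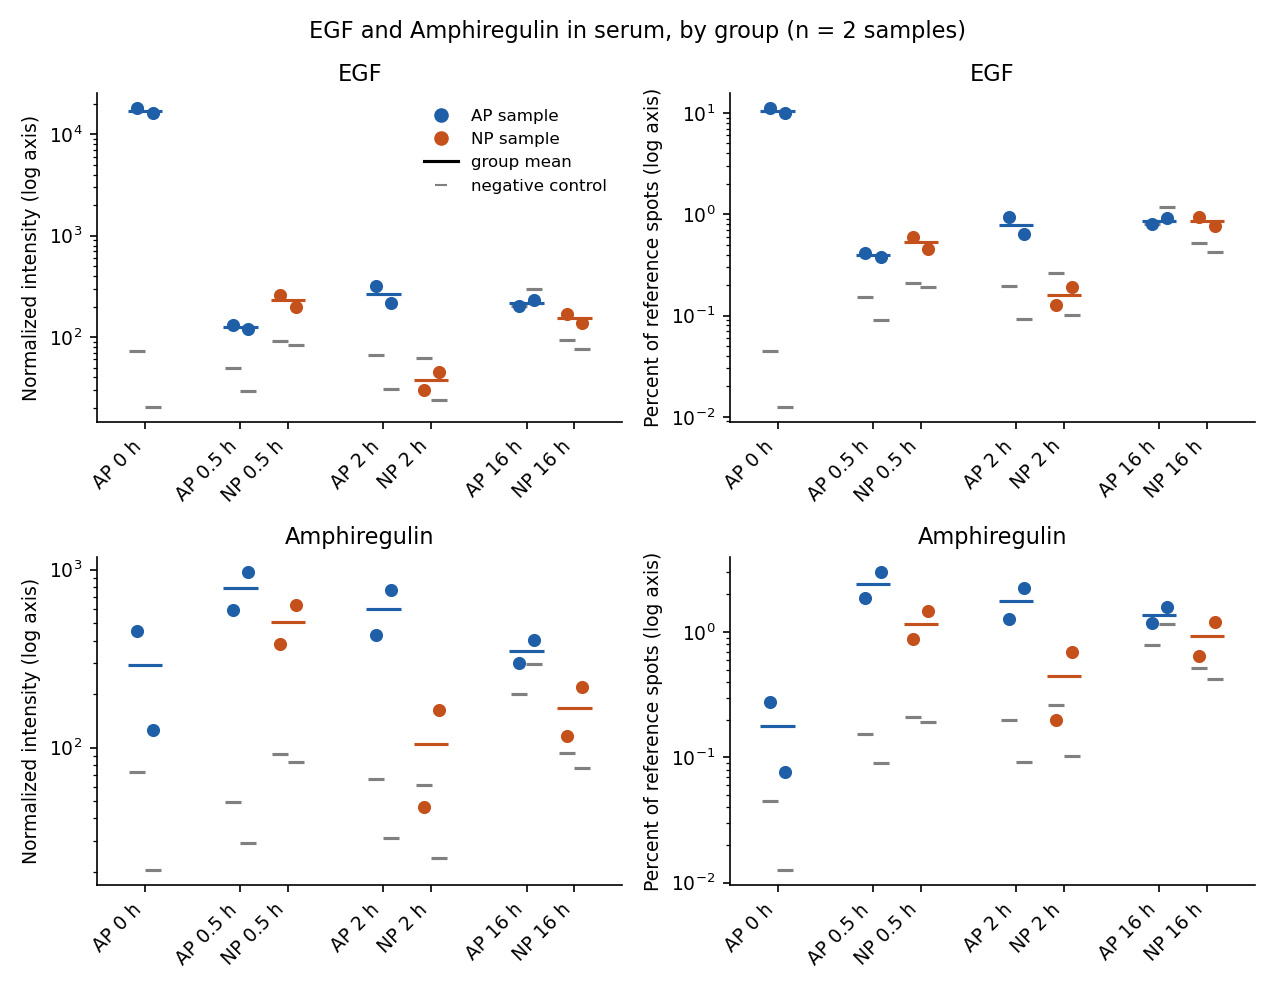
Intensity of EGF (top) and Amphiregulin (bottom) in each sample by group, as normalized intensity (left) and as percent of the reference spots of the same membrane (right), both on log axes. Points are samples (replicate 1 left, replicate 2 right), long bars are means of 2 samples and grey dashes are the negative control of each membrane. EGF lies at 16394 and 18067 at AP 0 h and at or below 319 in every later sample.

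Each reading was set against the negative control spot of its own membrane. EGF was above it in both samples of 5 groups and in 1 of 2 samples at AP 16 h and at NP 2 h. At AP 0 h its raw intensity was 247 and 805 times the control, but in the later samples at most 6.94 times. At NP 2 h the raw values were 35 and 45 against a control of 72 and 24, and at AP 16 h they were 205 and 231 against an unusually bright control of 203 and 296. Amphiregulin was above the control in 13 of 14 samples, NP 2 h replicate 1 (54 against 72) being the one below. Of all 111 analytes, 78 and 66 were above the control at AP 16 h, 87 and 110 at NP 2 h and 96 and 101 at NP 16 h. On the other membranes 108 to 111 were above it. At 16 h Amphiregulin was 1.48 and 1.35 times the control in AP and 1.25 and 2.86 times in NP, and EGF was 1.82 and 1.81 times in NP. The low readings of NP 2 h thus lie close to the background of the membrane for EGF and, in 1 sample, for Amphiregulin. Those of AP 16 h lie close to it for both ligands. A fold against such readings depends on how that background is handled.

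The position of each ligand among the 111 analytes of a membrane needs no scaling between membranes. EGF ranked 38 from the brightest in both AP 0 h samples. Afterwards it ranked 98 and 99 at AP 0.5 h, 79 and 82 at AP 2 h and 77 and 70 at AP 16 h. Under NP its ranks were 92 and 95 after 0.5 h, 101 and 98 after 2 h, and 76 and 85 after 16 h. All 12 later ranks were thus dimmer than at 0 h. Amphiregulin ranked 72 and 107 at AP 0 h. It ranked 68 and 62, 77 and 65, and 62 and 61 at AP 0.5, 2 and 16 h, and 82 and 69, 93 and 73, and 89 and 71 at the same times in NP. Its later ranks fell between those of the AP 0 h samples or were brighter than both. Antibodies differ in how well they bind, so a rank compares spots and not amounts of protein.

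The ratio of EGF to Amphiregulin on the same membrane, taken from raw intensities, moved by several powers of 2 after 0 h. It was 39.8 and 131 at AP 0 h, or 5.31 and 7.03 on the log2 scale. In the later samples its log2 lay between -3.01 (AP 0.5 h replicate 2) and 0.54 (NP 16 h replicate 1). The group means of this log2 ratio were 6.17 ± 1.22 at AP 0 h, -2.59 ± 0.58 at AP 0.5 h, -1.13 ± 0.99 at AP 2 h and -0.67 ± 0.17 at AP 16 h (SD, n = 2). For NP they were -1.12 ± 0.80 at 0.5 h, -1.24 ± 0.87 at 2 h and -0.06 ± 0.85 at 16 h, and the samples of both pressures overlapped at 2 and 16 h but not at 0.5 h. Any factor that brightens a whole membrane cancels in this ratio, so the ligands changed unequally between 0 h and every later time.

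**Figure D2:**
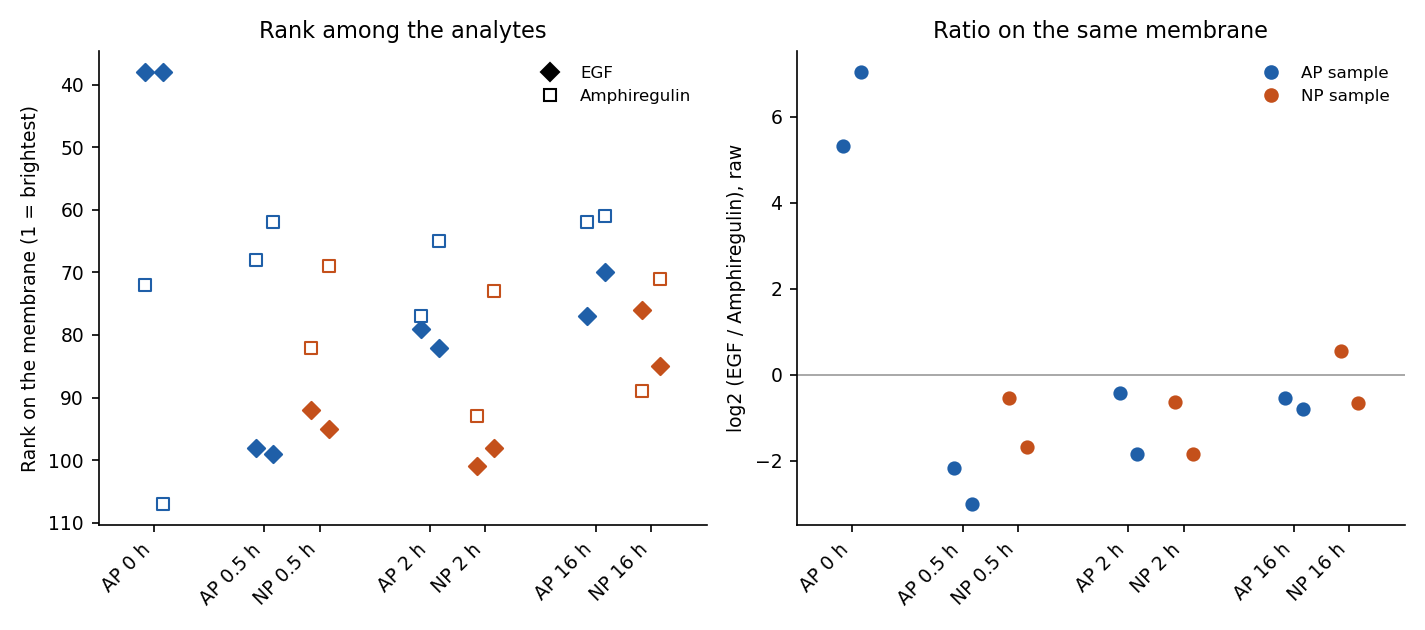
Left, rank of EGF (filled diamonds) and Amphiregulin (open squares) among the 111 analytes of each membrane, with brighter ranks at the top. Right, log2 of raw EGF over raw Amphiregulin on the same membrane, with AP samples in blue and NP samples in orange. EGF ranked 38 at AP 0 h and 70 or lower in brightness later, and the log2 ratio went from 5.31 and 7.03 to between -3.01 and 0.54.

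The comparison with AP 0 h asks how serum levels moved from the start of each treatment, and its 6 contrasts share the AP 0 h samples. EGF was lower in all 6. The log2 differences in normalized intensity were -7.09 at AP 0.5 h (adjusted p = 6.4e-12), -6.04 at AP 2 h (adjusted p = 5.3e-11) and -6.31 at AP 16 h (adjusted p = 1.6e-11), each with a standard error (SE) of 0.33. For NP they were -6.24 at 0.5 h (adjusted p = 4.9e-11), -8.87 at 2 h (adjusted p = 1.3e-13) and -6.82 at 16 h (adjusted p = 4.3e-12). In each of the 6 contrasts EGF had the lowest value of all 111 analytes. The next lowest was PDGF-BB, a platelet growth factor, at -3.64 in AP 0.5 h, and MMP-9, a protease stored in neutrophil granules, at -6.03 in AP 16 h, where the gap to EGF was small.

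Most of the membrane moved in the same direction on this scale. The share of all analytes called, in either direction, was 74.8%, 73.9% and 79.3% at AP 0.5, 2 and 16 h and 73%, 95.5% and 82.9% at the same times in NP. Lower calls alone made up 62.2%, 57.7% and 71.2% in AP and 55%, 91% and 76.6% in NP. The median analyte differed from 0 h by -1.19, -0.93 and -1.16 in AP and by -0.68, -2.10 and -1.76 in NP on the log2 scale. Relative to that median EGF was lower by a further log2 of -5.90, -5.11 and -5.16 in AP and -5.56, -6.77 and -5.06 in NP.

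With the reference scaling the background turned, but EGF did not. The median analyte was then 0.69 to 1.53 above 0 h on the log2 scale, while EGF was lower by -4.75, -3.77 and -3.63 in AP (adjusted p = 1.5e-09, 1.9e-08 and 4.3e-08) and by -4.34, -6.07 and -3.64 in NP (adjusted p = 8.1e-09, 1.1e-10 and 3.9e-08). Lower calls were few on this scale, at 2.7%, 2.7% and 5.41% of the analytes in AP and 3.6%, 9.91% and 5.41% in NP, out of 90.1%, 89.2% and 91.9% called in AP and 88.3%, 72.1% and 87.4% in NP. EGF stayed lower than at 0 h, with an adjusted p under the threshold, under every alternative tried and without any one sample.

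Amphiregulin differed from 0 h by a log2 of 1.68 at AP 0.5 h (SE 0.62, adjusted p = 0.022), 1.27 at AP 2 h (adjusted p = 0.076) and 0.54 at AP 16 h (adjusted p = 0.43). In NP the values were 1.05 at 0.5 h (adjusted p = 0.14), -1.45 at 2 h (adjusted p = 0.035) and -0.58 at 16 h (adjusted p = 0.38). Hence it was called higher at AP 0.5 h and lower at NP 2 h, and the intervals at the other times spanned 0. The AP 0.5 h call was lost when replicate 2 of AP 0 h (0.75) or of AP 0.5 h (1.32) was left out, with an adjusted p of 0.33 and 0.16. The NP 2 h call was lost when replicate 1 of AP 0 h (-0.53) or of NP 2 h (-0.55) was left out, with an adjusted p of 0.46 and 0.43. Without a trend in limma neither passed (adjusted p = 0.070 and 0.088). With the reference scaling all 6 values were positive, at 4.02, 3.54 and 3.22 in AP (adjusted p = 1.7e-05, 6.0e-05 and 1.7e-04) and 2.96, 1.34 and 2.60 in NP (adjusted p = 3.3e-04, 0.064 and 0.0011). The direction at NP 2 h and NP 16 h therefore turned with the scale. Its place among the analytes is the same on both scales by construction, since they differ only by a factor for each whole membrane. It was 3rd from the highest of 111 at AP 0.5 h and 10th, 11th, 16th, 29th and 22nd at AP 2 h, AP 16 h, NP 0.5 h, NP 2 h and NP 16 h.

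**Figure D3:**
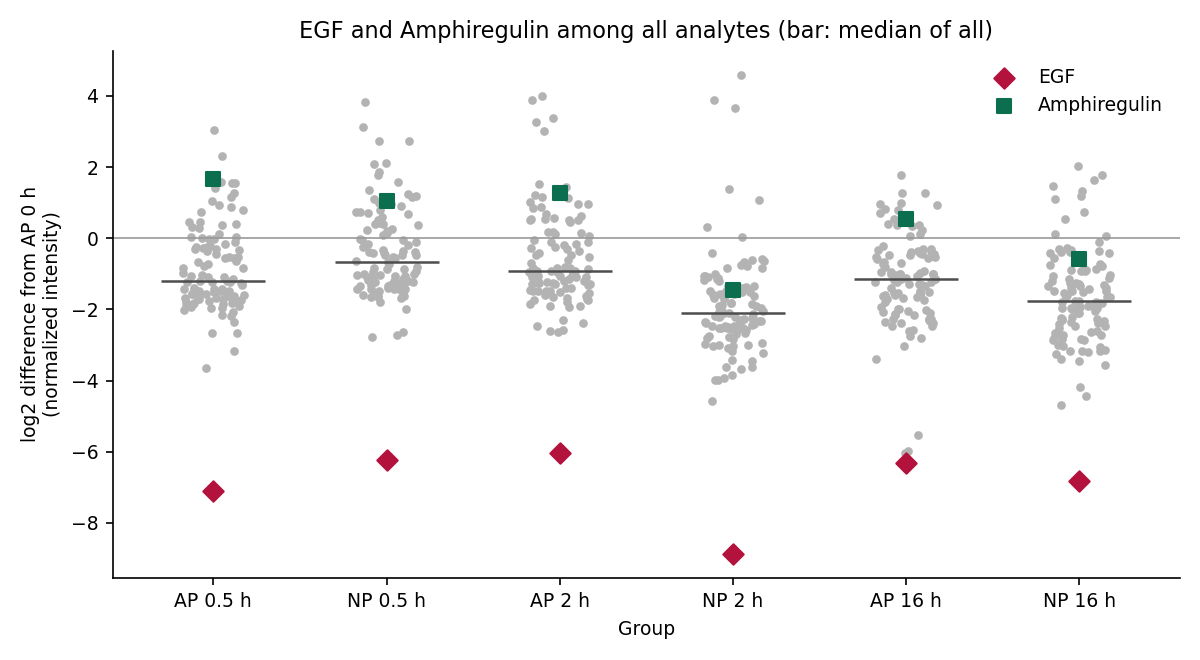
log2 difference in normalized intensity from AP 0 h for each of the 111 analytes (grey points, spread sideways for view) in the 6 later groups, with EGF (red diamonds), Amphiregulin (green squares) and the median of all analytes (bars). EGF is the lowest point in each group, from -6.04 to -8.87, and Amphiregulin lies above the median in each.

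The comparison of NP with AP at the same time asks whether the pressure changed the ligands. At 2 h both were lower in NP. EGF read 30.1 and 45 in NP against 319 and 215 in AP, a log2 difference of -2.83 (SE 0.33, adjusted p = 7.5e-07), and Amphiregulin read 46.4 and 163 against 429 and 768, a difference of -2.72 (SE 0.62, adjusted p = 7.4e-04). The samples of the pressures did not overlap for either ligand, as for 91% of all analytes. Of the 111 analytes 90.1% were called at 2 h, 96 of them lower in NP, with a median of -1.23. EGF was 11th and Amphiregulin 15th from the lowest. With the reference scaling, where 73% of the analytes were called, EGF was lower by -2.30 (adjusted p = 1.2e-05) and Amphiregulin by -2.20 (adjusted p = 0.0052). Both calls held without any one sample. In NP 2 h replicate 1 both ligands were below the negative control (raw 35 and 54 against 72). Subtracting the control set these readings to a floor. It gave -5.66 for EGF (adjusted p = 0.021) and -5.56 for Amphiregulin (adjusted p = 0.024). The size of both differences therefore depends on how the background is handled. Median scaling and quantile normalization, which set the brightness of whole membranes equal, left EGF at -0.95 and -1.03 (adjusted p = 0.041 and 0.0083) and Amphiregulin at -0.85 and -0.72 (adjusted p = 0.18 and 0.39). By the methods' t-test with Benjamini-Hochberg adjustment neither passed, at an adjusted p of 0.069 for EGF and 0.13 for Amphiregulin.

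At 0.5 h the ligands pointed in different directions. EGF read 261 and 198 in NP against 132 and 121 in AP, with no overlap. The difference of 0.85 (SE 0.33, adjusted p = 0.043) did not pass the threshold with the reference scaling (0.41, adjusted p = 0.39), nor without any one of the 4 samples (0.65 to 1.05, adjusted p up to 0.23), and it turned to -0.15 with median scaling. Amphiregulin read 382 and 636 in NP against 597 and 972 in AP, with overlap on normalized intensity. Its difference was -0.63 (adjusted p = 0.40) or, with the reference scaling, -1.06 (adjusted p = 0.23), and with median scaling -1.62 (adjusted p = 0.017). At this time 49.5% of the analytes were called and 80.2% did not overlap between the pressures on normalized intensity, and 34.2% were called with the reference scaling. EGF was 19th from the highest and Amphiregulin 7th from the lowest of the 111.

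At 16 h neither ligand passed the test on normalized intensity or with the reference scaling. EGF read 169 and 138 in NP against 203 and 231 in AP, a log2 difference of -0.51 (95% interval -1.21 to 0.20, adjusted p = 0.19), and with the reference scaling -0.01 (interval -0.71 to 0.69, adjusted p = 0.99), where the samples of the pressures overlapped. Amphiregulin read 116 and 218 in NP against 297 and 401 in AP, with a difference of -1.12 (95% interval -2.44 to 0.20, adjusted p = 0.13) and, with the reference scaling, -0.62 (interval -1.95 to 0.70, adjusted p = 0.46). Among all analytes 60.4% were called, 86.5% did not overlap, and 37.8% were called with the reference scaling. The AP 16 h membranes carried the brightest negative controls, 203 and 296 raw against 21 to 93 elsewhere, and subtracting each membrane's control turned the EGF difference to 5.60 (adjusted p = 0.020), with 1 AP 16 h sample then set to a floor. Median scaling brought both ligands past the threshold, EGF at -1.05 (adjusted p = 0.018) and Amphiregulin at -1.66 (adjusted p = 0.0068).

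**Figure D4:**
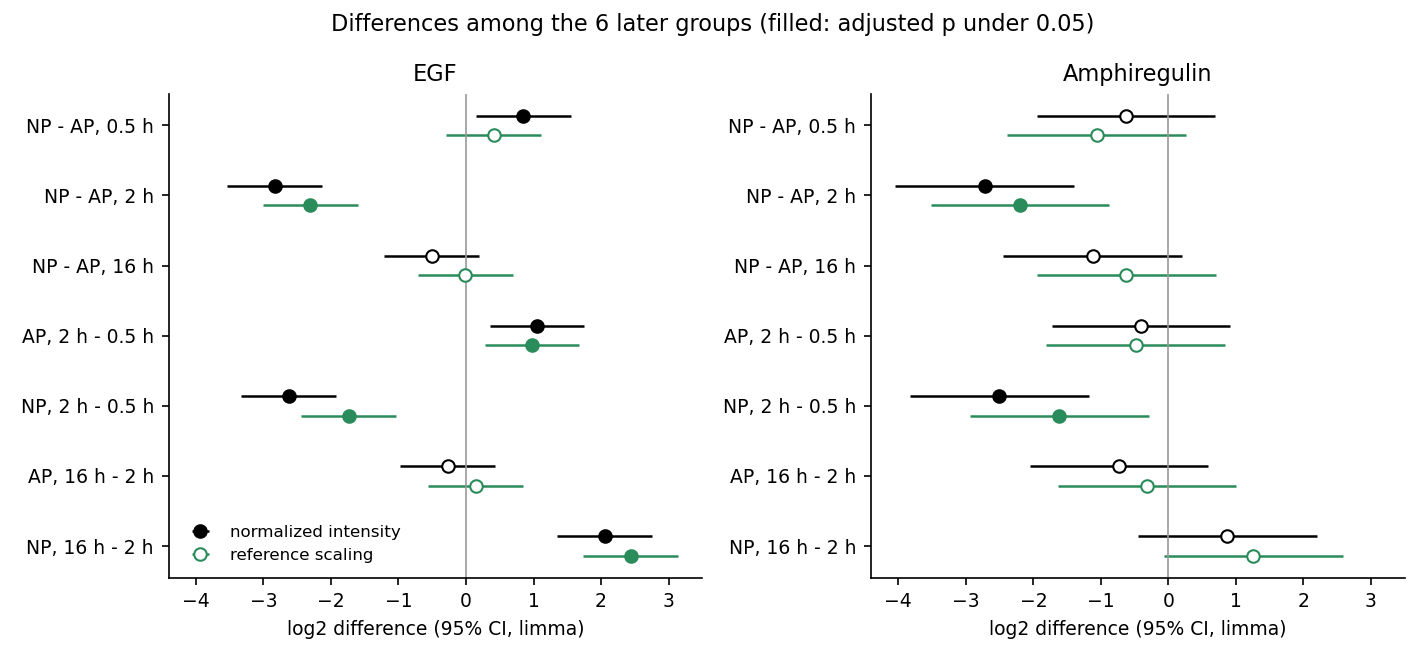
log2 differences of EGF (left) and Amphiregulin (right) between the pressures at each time and between times within a pressure, with 95% confidence intervals from limma, on normalized intensity (black) and with the reference scaling (green). Filled points have an adjusted p under 0.05. Both ligands have filled points on both scales for NP against AP at 2 h and for NP at 2 h against 0.5 h.

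Within AP, EGF rose from 0.5 to 2 h by 1.05 on the log2 scale (adjusted p = 0.015, with 49.5% of the analytes called), from 132 and 121 to 319 and 215. With the reference scaling the rise was 0.98 (adjusted p = 0.024, with 45.9% called). This call was lost on leaving out replicate 1 of AP 2 h (0.77) or replicate 1 or 2 of AP 0.5 h (1.11 and 0.99), where the adjusted p was 0.16, 0.050 and 0.083. Median scaling turned it to -0.13 (adjusted p = 0.79), and control subtraction gave 1.31 (adjusted p = 0.94). From 2 to 16 h the AP difference of EGF was -0.27 (adjusted p = 0.50) or, with the reference scaling, 0.15 (adjusted p = 0.72), with median scaling 2.05 (adjusted p = 1.7e-05) and after control subtraction -7.26 (adjusted p = 0.0036), while 63.1% and 64% of the analytes were called. Amphiregulin differed within AP by -0.41 (adjusted p = 0.65) and -0.73 (adjusted p = 0.32) in these steps, and by -0.48 and -0.32 with the reference scaling. Median scaling called both steps, at -1.59 (adjusted p = 0.012) and 1.59 (adjusted p = 0.0082).

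Within NP both ligands fell between 0.5 and 2 h. EGF went from 261 and 198 to 30.1 and 45, a log2 difference of -2.63 (adjusted p = 1.7e-06). Amphiregulin went from 382 and 636 to 46.4 and 163, a difference of -2.50 (adjusted p = 0.0013). In this step 93.7% of the analytes were called and the median was -1.39. With the reference scaling the falls were -1.74 (adjusted p = 2.7e-04) and -1.61 (adjusted p = 0.028), with 72.1% called and a median of -0.50. Median scaling and quantile normalization ended both calls, with EGF at -0.94 and -0.39 (adjusted p = 0.052 and 0.32) and Amphiregulin at -0.81 and -0.41 (adjusted p = 0.20 and 0.66). From 2 to 16 h EGF rose by 2.05 (adjusted p = 4.7e-05, 63.1% called) and, with the reference scaling, by 2.44 (adjusted p = 7.0e-06, 77.5% called), which placed it 8th from the highest of 111. This call ended after control subtraction (4.01, adjusted p = 0.13). On normalized intensity the EGF samples of NP 16 h, 169 and 138, lay above those of NP 2 h and below those of NP 0.5 h. With the reference scaling they also lay above those of NP 0.5 h, at 0.941% and 0.767% against 0.60% and 0.456%. Amphiregulin in the same step differed by 0.87 (adjusted p = 0.23) and by 1.26 with the reference scaling (adjusted p = 0.075), and its samples overlapped between the times.

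The step from 0.5 to 2 h differed between the pressures for EGF, by a log2 of -3.68 (SE 0.47, adjusted p = 2.1e-06), and with the reference scaling by -2.72 (adjusted p = 1.5e-04). It was no longer called with median scaling (-0.81, adjusted p = 0.23) or after control subtraction (-6.34, adjusted p = 0.066). For Amphiregulin the difference was -2.09 (SE 0.88, adjusted p = 0.035) and with the reference scaling -1.13 (adjusted p = 0.27), and it turned to 0.77 with median scaling and 0.11 with quantile normalization. The Amphiregulin call also ended without AP 0.5 h replicate 1, NP 0.5 h replicate 2, AP 2 h replicate 2 or NP 2 h replicate 1 (-1.74, -1.73, -1.68 and -1.19). Such a difference was called for 88.3% of all analytes on normalized intensity and for 71.2% with the reference scaling. The step from 2 to 16 h also differed for EGF, by 2.32 (adjusted p = 4.3e-04) and 2.29 with the reference scaling (adjusted p = 4.8e-04), against a background of 59.5% and 58.6% called. Median scaling left -0.10 (adjusted p = 0.88) and quantile normalization 0.63 (adjusted p = 0.22). For Amphiregulin it was 1.60 (adjusted p = 0.13) and 1.57 (adjusted p = 0.14).

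In order of mean normalized intensity, EGF followed AP 0 h, AP 2 h, NP 0.5 h, AP 16 h, NP 16 h, AP 0.5 h and NP 2 h. The samples of AP 2 h and NP 0.5 h overlapped, as did those of NP 0.5 h and AP 16 h, and all other neighbours in the order were separate. As a percent of the reference spots the order was AP 0 h, AP 16 h, NP 16 h, AP 2 h, NP 0.5 h, AP 0.5 h and NP 2 h, with overlap among AP 16 h, NP 16 h and AP 2 h. NP 2 h was the lowest group for EGF on both scales and AP 0 h the highest. Amphiregulin gave AP 0.5 h, AP 2 h, NP 0.5 h, AP 16 h, AP 0 h, NP 16 h and NP 2 h, and every neighbouring pair in that order overlapped. On the reference scaling AP 0.5 h stayed the highest and AP 0 h became the lowest, again with overlap between all neighbours.

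The spots beside the ligands on the membrane gave the following levels. Around EGF, the peptidase DPPIV stood at 18.6% to 43.6% of its AP 0 h level in the 6 later groups and the adhesion molecule ICAM-1 at 17.7% to 52.2%. The membrane-bound chemokine CX3CL1 stood at 17.6% to 145%, and the endothelial receptor Endoglin at 205% to 1022%. EGF itself stood at 0.218% to 1.55%. Next to Amphiregulin, the plasma hormone Adiponectin stood at 12.9% to 37.9% of its AP 0 h level, Angiopoietin-1, a ligand of the endothelial receptor Tie2, at 16.5% to 44.4%, and the eosinophil chemokine CCL11 at 19.1% to 75.2%. Amphiregulin itself stood at 36.2% (NP 2 h) to 271% (AP 0.5 h), with an SD of 24.9 to 91.7 percentage points in these 6 groups.

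A time course most like that of EGF was sought as the smallest root mean square difference over the 7 group means of log2 intensity, each analyte centred on its own mean. The nearest was Myeloperoxidase, an enzyme of neutrophil granules, at 1.34, followed by IL-3 at 1.73 and GM-CSF at 1.74, both growth factors of blood cells. The median analyte lay at 2.15, so no analyte followed EGF closely. For Amphiregulin the nearest were the chemokine CCL19 at 0.39, the alarmin IL-33 at 0.43 and the chemokine CXCL11 at 0.53, against a median of 1.05. Scaling a whole membrane does not alter these distances.

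Ligands of other receptor tyrosine kinases on the array numbered 10, among them FGF acidic, FGF-21, HGF, PDGF-BB, Gas6, both angiopoietins, M-CSF and Flt-3 Ligand. At 2 h, 8 of the 10 were lower in NP than in AP and none was higher, with a median of -1.15 against -1.23 for all 111 analytes. Among all analytes 86.5% were lower at 2 h. FGF-21, a stress hormone of the liver, had the lowest value (-3.35, adjusted p = 1.9e-08). Against 0 h, 7 of the 10 were lower and 1 higher at AP 0.5 h (62.2% of all analytes were lower), where FGF acidic, a heparin-binding mitogen, reached 2.31 (adjusted p = 5.9e-06) and PDGF-BB -3.64 (adjusted p = 1.6e-08). With the reference scaling 8 were higher and 1 lower at that time (87.4% of all analytes were higher), the lower one being PDGF-BB at -1.30 (adjusted p = 0.0012). EGF was at -4.75 there, the lowest value of all 111 analytes and so also below each of these ligands.

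Proteins that are likewise cut from membrane-bound forms numbered 13, among them CX3CL1, CXCL16, TNF-alpha, RAGE, ICAM-1, VCAM-1, C1qR1, Endoglin and CD40. At 2 h, 12 of the 13 were lower in NP than in AP on either scale, with a median of -1.61 on normalized intensity and -1.08 with the reference scaling, where the median of all analytes was -0.70. Lower calls made up 86.5% of all analytes on the first scale and 63.1% on the second. RAGE, a receptor of damage signals, had the lowest value of the list and of the array (-6.09, adjusted p = 5.9e-10). At AP 0.5 h, 7 were lower than at 0 h and 2 higher, but 13 of 13 were higher with the reference scaling (median 1.25), as were 87.4% of all analytes (median 1.15). On that scale Amphiregulin moved with them (4.02) and EGF in the opposite direction (-4.75). On normalized intensity this turned: the median of the list was -1.09, with Amphiregulin at 1.68 and EGF at -7.09.

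The array held 6 other proteins that platelet granules are known to store or carry to the surface, among them PDGF-BB, P-Selectin, Angiopoietin-1, CCL5 and Serpin E1. Against 0 h with the reference scaling, 4 were higher and 1 lower at AP 0.5 h (median 1.01), 6 were higher at AP 2 h (median 1.88) and 5 higher and 1 lower at AP 16 h (median 1.60). In NP 5 were higher at 0.5 h (median 1.16), 5 at 2 h (median 1.36) and 6 at 16 h (median 1.86), with none lower. Higher calls over all analytes made up 87.4%, 86.5% and 86.5% at AP 0.5, 2 and 16 h and 84.7%, 62.2% and 82% at the same times in NP. The medians of all analytes were 1.15, 1.34 and 1.53 in AP and 1.23, 0.69 and 1.43 in NP. The lowest value in the list was that of PDGF-BB at AP 16 h (-3.28, adjusted p = 8.1e-08). On normalized intensity 3 to 5 of the 6 were lower than at 0 h in each later group, beside 55% to 91% of all analytes. Serpin E1, an inhibitor of plasminogen activators, was higher in 5 of the 6 groups and reached 3.89 at AP 2 h (adjusted p = 3.9e-12). Between the pressures at 2 h, 4 were lower in NP and none higher (median -0.86). Of all analytes 86.5% were lower in NP at this time (median -1.23). CCL5, a chemokine of T cells and platelets, was the lowest of the list at -2.81 (adjusted p = 3.7e-04). EGF, the lowest of all 111 analytes in the 6 later groups, was by that place also below each listed platelet protein. The margin was small at AP 16 h, where PDGF-BB was at -5.97 and EGF at -6.31 on normalized intensity.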

How the data were processed

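Serum was measured on membranes with antibodies against 111 analytes, 3 reference positions and a negative control. For each of 14 samples the authors deposited a raw intensity, read with ImageJ, and a normalized intensity. The normalized intensity is the raw one times a factor (0.859 to 1), the smaller of 1 and the other sample's mean reference over the sample's own. The deposited series values equalled it (largest relative difference 0). Whether a background was subtracted is not given in the sources used here. The methods describe array values as averages of duplicates. The 14 columns of the authors' folds over AP 0 h were not used, and 0 value columns were unmatched. Gene symbols were paired with 111 of 111 analytes.

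Comparisons were fitted with lmFit on 7 group means and eBayes with a trend (limma 3.58.1, R 4.3.3), on log2 of the normalized intensity, with Benjamini-Hochberg adjustment across 111 analytes and a threshold of 0.05. The fit was tested on simulated data. Python 3.11.15 with numpy 2.4.6, pandas 2.3.3 and, for figures, matplotlib 3.10.9 served for the tables. The methods name a Student's test on folds, which was run as an alternative with and without Benjamini-Hochberg adjustment and is called the methods' t-test. The other alternatives were quantile normalization, equal medians (median scaling), the reference scaling, raw intensities, subtraction of the negative control (135 of 1554 values set to a floor), removal of the dimmest 0.25 of the analytes (83 kept), no trend in limma, a block for the replicate number, a fit restricted to the groups compared, and removal of each sample in turn. A fit of the 6 later groups and a crossed pairing were added after the data were seen. Named besides the members were the 3 analytes with the nearest time course to each, the spots beside each on the membrane, and the extremes of 3 lists of analytes. Members and lists were chosen with earlier results of these data known.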

Additional observations from a re-analysis of the deposited data

Results flagged for a closer look

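For 3 results the change between times differed between NP and AP by the test of the difference itself. Over all analytes such a difference was called for 88.3% from 0.5 to 2 h (median -1.69). From 2 to 16 h it was called for 59.5% (median 0.69). The change of EGF from 0.5 to 2 h was lower in NP than in AP by a log2 of -3.68 (limma, adjusted p = 2.1e-06). From 2 to 16 h EGF differed in the opposite direction, by 2.32 (adjusted p = 4.3e-04). Amphiregulin differed from 0.5 to 2 h by -2.09 (adjusted p = 0.035). With median scaling these differences were -0.81, -0.10 and 0.77, none of them past the threshold. Groups of 2 samples allow no test for a sample that stands apart.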

How the results depend on the processing

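Of 440 alternative values of 30 results, 354 kept their direction and their side of the threshold, 44 lost a call, 18 gained one and 24 turned in sign. EGF against AP 0 h kept both in every alternative for all 6 later groups. All values here are log2 differences, and the cause of a change was not tested unless the setting itself removes samples. The raw intensities and the dimmest analytes left out changed no call. Deviations of samples with the same replicate number correlated above 0.1 in 14 of 21 pairs of groups and below 0 in 6 (-0.18 to 0.50), so that not every pair met the criterion for pairing, and no label says that a number marks a shared experiment. Within a replicate number, Amphiregulin differed between NP and AP at 0.5 h by -0.64 and -0.61, although the samples of the groups overlap (adjusted p = 0.40 with the replicate block). The replicate block changed no call of either ligand (EGF for NP against AP at 2 h -2.83, adjusted p = 2.7e-06), while calls over all analytes moved from 55 to 57, 100 to 101 and 67 to 71 for NP against AP at 0.5, 2 and 16 h. A crossed pairing, chosen after seeing the data, gave 83 calls for AP 2 h against AP 0 h and 70 for AP 16 h against AP 2 h.

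For NP against AP at 0.5 h, EGF was 0.41 with the reference scaling, -0.15 with median scaling, 0.31 under quantile normalization, 0.68 after control subtraction, 0.85 with only the groups compared and in the fit of the 6 later groups (adjusted p = 0.057 and 0.059), 0.86 with the methods' t-test (adjusted p = 0.15) and 0.65 to 1.05 with 1 sample left out. Amphiregulin was -1.62 with median scaling (adjusted p = 0.017). At 2 h Amphiregulin was -0.85 with median scaling, -0.72 under quantile normalization and -2.52 with the methods' t-test, and EGF with the methods' t-test was -2.83 (adjusted p = 0.069). At 16 h EGF was called at -1.05 with median scaling and at 5.60 after control subtraction, and Amphiregulin was called at -1.66 with median scaling and -1.12 with only the groups compared (adjusted p = 0.010).

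Against AP 0 h, Amphiregulin at AP 0.5 h was 1.85 after control subtraction, 1.68 in limma without the trend (adjusted p = 0.070) and 0.75 to 2.61 with 1 sample left out. At AP 2 h it was 3.54 with the reference scaling, 1.27 with only the groups compared (adjusted p = 0.0049) and 0.34 to 2.20 with 1 sample left out. At AP 16 h it was 3.22 with the reference scaling, 1.97 with median scaling, 2.13 under quantile normalization, -0.99 after control subtraction and -0.39 to 1.46 with 1 sample left out (-0.39 without AP 0 h replicate 2). At NP 0.5 h it was 2.96 with the reference scaling, 1.05 with only the groups compared (adjusted p = 0.025) and 0.12 to 1.98 with 1 sample left out. At NP 2 h it was 1.34 with the reference scaling, -0.46 with median scaling, 0.48 under quantile normalization, -4.19 after control subtraction, -1.45 without the trend (adjusted p = 0.088) and -2.38 to -0.53 with 1 sample left out. At NP 16 h it was 2.60 with the reference scaling, 0.31 with median scaling, 0.64 under quantile normalization and -1.51 to 0.35 with 1 sample left out (0.35 without AP 0 h replicate 1).

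From 0.5 to 2 h in AP, EGF was -0.13 with median scaling, 1.31 after control subtraction and 0.77 to 1.34 with 1 sample left out, and Amphiregulin was -1.59 with median scaling and -0.83 to 0.012 with 1 sample left out. From 2 to 16 h in AP, EGF was 0.15 with the reference scaling, 2.05 with median scaling, 0.42 under quantile normalization, -7.26 after control subtraction and -0.56 to 0.011 with 1 sample left out. In that step Amphiregulin was 1.59 with median scaling, 0.92 under quantile normalization and -0.73 with only the groups compared (adjusted p = 0.032). From 0.5 to 2 h in NP, median scaling and quantile normalization gave EGF -0.94 and -0.39 and Amphiregulin -0.81 and -0.41. From 2 to 16 h in NP, EGF was 4.01 after control subtraction (adjusted p = 0.13) and Amphiregulin was -0.035 to 1.78 with 1 sample left out, called only without NP 2 h replicate 2.

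For NP against AP in the step from 0.5 to 2 h, EGF was -0.81 with median scaling and -6.34 after control subtraction. Amphiregulin was -1.13 with the reference scaling, 0.77 with median scaling, 0.11 under quantile normalization, -4.72 after control subtraction, -2.09 without the trend (adjusted p = 0.089) and -3.0 to -1.19 with 1 sample left out. In the step from 2 to 16 h, EGF was -0.10 with median scaling and 0.63 under quantile normalization, and Amphiregulin was -0.82 and -0.76 with these settings and 0.70 to 2.51 with 1 sample left out. Readings near the negative control at NP 2 h and AP 16 h limit the folds of EGF most, since subtracting the control there moved them by several log2 units.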
